A study of Mus musculus with 16 samples.

Results

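Kidney cortex RNA was compared between mice with an induced deletion of Degs1 and control littermates, pooling mice that had a sham operation with mice that had ischaemia-reperfusion injury (IRI). All 16 libraries of the series entered the comparison, 8 from knockout mice (iGKO) and 8 from controls (fl/fl), with 4 libraries of each genotype after each operation. The iGKO mice carried Degs1fl/fl with Rosa26-CreERT2, a tamoxifen-inducible Cre expressed in all tissues, and the fl/fl mice were Degs1fl/fl littermates. All were male on a C57Bl/6J background. Both genotypes were given tamoxifen (3 mg daily for 5 days) when 9 weeks old and were operated on when 12 weeks old, so exposure to tamoxifen is shared by both. The labels give the Cre driver to the iGKO mice alone, so the presence of CreERT2 and the loss of Degs1 cannot be told apart. In the IRI groups blood flow to both kidneys was clamped for 28 min, followed by up to 24 h of reperfusion. The comparison asks which genotype differences hold after both operations, and the fitted model therefore holds the operation constant and estimates 1 genotype difference for all libraries. Differences are log2 fold changes coded iGKO minus fl/fl, with their standard error (SE), and levels are CPM, counts scaled to a common library size.

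Degs1 encodes dihydroceramide desaturase, which inserts a double bond into dihydroceramide and so completes the de novo synthesis of ceramide. The pathway starts in the endoplasmic reticulum, where serine palmitoyltransferase (Sptlc1, Sptlc2 and Sptlc3) condenses serine with a fatty acyl-CoA. Kdsr then reduces the product, and the ceramide synthases (Cers genes) add a second acyl chain. Ceramide is used to make sphingomyelin and glycosphingolipids or is broken down to sphingosine. In kidney, ceramides are known for their effects on mitochondria, on which proximal tubule cells depend heavily for reabsorption.

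Total counts ranged from 12704273 to 18816343 per library. Markers of kidney cortex were present in all 16 libraries: the summed level of 14 proximal tubule markers was 5645 to 32093 CPM, and that of 6 podocyte markers was 334 to 590 CPM. Several libraries stood apart from their groups in some measure. In iGKO sham 4, mitochondrially encoded genes took 0.443% of counts, against 2.05% to 6.48% in the other 15 libraries. In fl/fl IRI 1, Havcr1 (KIM-1, the standard marker of proximal tubule injury) was at 101 CPM, while fl/fl IRI 2, 3 and 4 had 710 to 1666 CPM. In iGKO IRI 3 the fat markers Plin1 and Cfd were at 176 and 555 CPM, against at most 20.5 and 96.0 CPM in its group, and in iGKO IRI 2 Mmp2 was at 142 CPM against at most 11.6 CPM. Main counts are given with and without iGKO sham 4 and fl/fl IRI 1 together, called both libraries below, and the pooled and Degs1 results also without each library in turn. In the fit without both libraries, 1058 of 18243 genes were higher and 1116 lower in iGKO at an unadjusted p under 0.05 (11.9% in both directions), and counts from that fit are to be read against these. No pair of libraries within a group held the same counts.

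Degs1 was the only gene of 17972 tested that passed the pooled test, and it fell to 52.4% of the control level in the fitted model. In fl/fl mice Degs1 was at 113, 84.0, 98.7 and 105 CPM after sham and at 88.8, 115, 133 and 114 CPM after IRI. In iGKO mice it was at 65.3, 50.7, 71.7 and 40.2 CPM after sham and at 58.4, 54.8, 44.7 and 59.8 CPM after IRI. All 8 iGKO libraries lay below all 8 fl/fl libraries, with 71.7 CPM as the highest iGKO value and 84.0 CPM as the lowest fl/fl value. Over both operations fl/fl libraries averaged 106 ± 15.8 CPM and iGKO libraries 55.7 ± 10.4 CPM (mean ± SD, n = 8). The log2 fold change was -0.93 ± 0.13 (SE), with a 95% interval from -1.20 to -0.66, that is, a residual level of 43.5% to 63.2% (edgeR quasi-likelihood test, adjusted p = 0.0202). An exact two-sided permutation test of genotype within each operation gave p = 0.000408, the smallest value that its 4900 arrangements can give.

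The Degs1 difference was seen separately in each set of mice. It was -0.81 ± 0.19 (SE) after sham and -1.05 ± 0.16 after IRI when the operations were fitted alone in edgeR, with an adjusted p of 0.999 and 0.302 over all genes in those smaller sets. The interaction of genotype with operation had an adjusted p of 0.754. The counts used reads over the whole gene, and no value per exon was used, so residual reads of the deleted allele and reads of undeleted cells cannot be told apart. In bulk cortex, fewer cells with a transcript and less of it per cell also cannot be told apart. The adjusted p was sensitive to leaving out 1 library: it stayed under 0.05 in 6 of the 16 such fits and lost the call in 10. The call was lost without fl/fl sham 1, 3 or 4, iGKO sham 2, fl/fl IRI 2, 3 or 4, or iGKO IRI 1, 2 or 4. Over the 16 fits the log2 fold change ranged from -1.0 to -0.87 and the adjusted p from 0.00833 to 0.0879, with an unadjusted p of at most 4.78e-06.

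**Figure D1:**
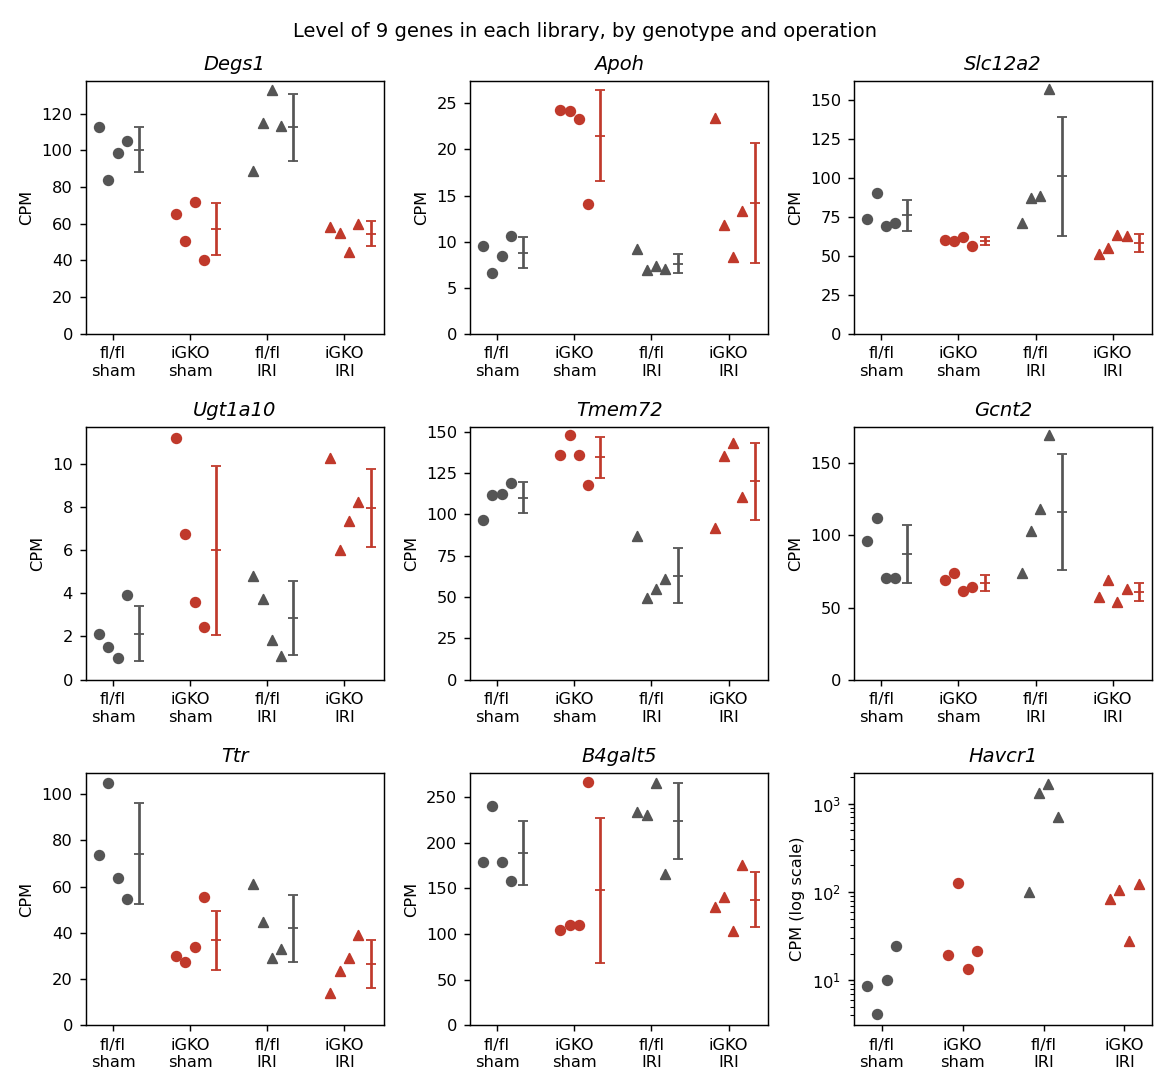
Level of 9 genes in each of the 16 libraries, in CPM, with circles for sham, triangles for IRI, grey for fl/fl and red for iGKO; bars at the right of each group are the mean and SD of 4 libraries, left out for Havcr1, which has a log axis. Degs1 and Slc12a2 are lower in every iGKO library than in any fl/fl library, Apoh is higher in iGKO with 1 IRI library inside the control range, and Havcr1 is higher in IRI than in sham libraries of fl/fl mice, with opposite genotype differences after sham and after IRI.

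Apart from Degs1, the pooled genotype difference was small for most genes, and none passed the adjusted threshold. The 1 called gene was 0.00556% of the 17972 tested. At an unadjusted p under 0.05 there were 1053 genes, 5.86% of those tested, of which 496 (2.76%) were higher and 557 (3.1%) lower in iGKO. The smallest adjusted p after Degs1 was 0.272. The median absolute log2 fold change over all tested genes was 0.16, and the median SE was 0.19. The 95% interval lay within ±1 on the log2 scale, a 2-fold difference either way, for 14540 genes (80.9%). It lay within ±0.5 for 7055 genes (39.3%), so smaller shared differences were not resolved for most genes. DESeq2 called 2 genes in the same comparison, Degs1 and Apoh. The limma-voom fit with sample quality weights, which gives unusual libraries less weight, called 4: Degs1, Apoh, Ttr and B4galt5. Without both libraries, edgeR again called 1 gene, Degs1, and the count at an unadjusted p under 0.05 was 2174 (11.9%). That count was 2041 without fl/fl IRI 1, 658 without fl/fl IRI 4 and 655 without iGKO IRI 3, so its size depends on single IRI libraries.

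**Figure D2:**
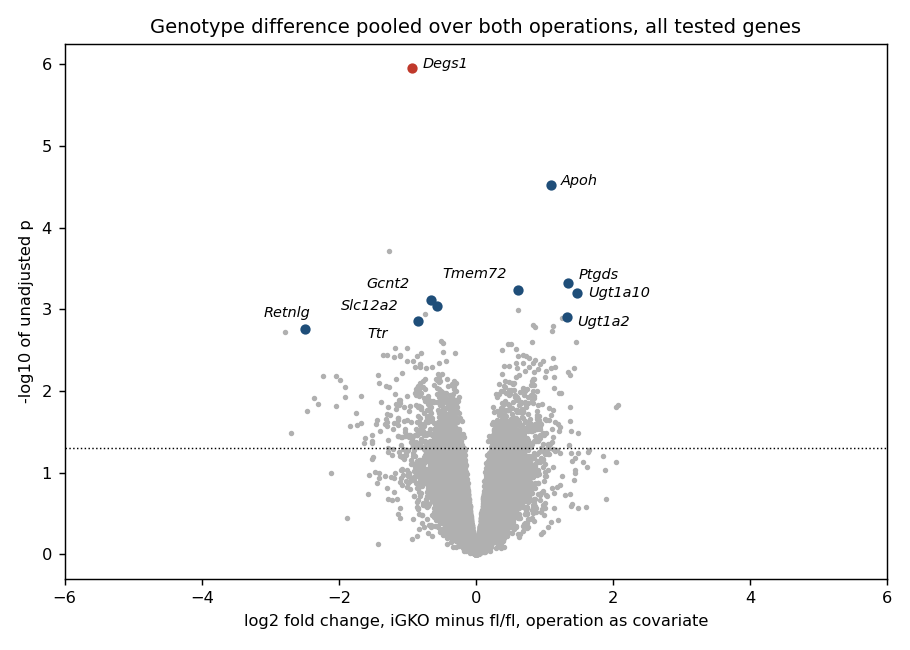
Pooled genotype difference of all 17972 tested genes: the x axis is the log2 fold change (iGKO minus fl/fl, operation as covariate) and the y axis is -log10 of the unadjusted p, with a dotted line at the unadjusted threshold of 0.05. Degs1 (red) stands above all other genes, Apoh is next, and the other named genes (blue) merge with the upper edge of the cloud.

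Apoh had the next smallest p. It encodes beta-2-glycoprotein I, a plasma protein that binds phospholipids. It was at 9.56, 6.61, 8.45 and 10.6 CPM in fl/fl sham and at 24.3, 24.2, 23.3 and 14.1 CPM in iGKO sham. The IRI values were 9.16, 6.90, 7.36 and 7.08 CPM in fl/fl and at 23.4, 11.8, 8.28 and 13.3 CPM in iGKO. The genotypes did not overlap after sham, and after IRI the value of iGKO IRI 3 lay within the fl/fl range. The pooled log2 fold change was 1.09 ± 0.20 (adjusted p = 0.272), with 1.29 after sham and 0.90 after IRI. Apoh passed with DESeq2 (adjusted p = 0.000546), with limma-voom (adjusted p = 0.0198) and in edgeR without iGKO IRI 3 (adjusted p = 0.0346). It did not pass under any of the other 22 alternatives, and over all 25 the adjusted p ranged from 0.000546 to 0.778.

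Among genes with a mean of at least 1 CPM and an established symbol, the other 5 with the smallest p in the higher direction, none of which passed, were Ptgds, Tmem72, Ugt1a10, Rab27a and Ugt1a2, each with an adjusted p of 0.702. Ugt1a10 encodes a UDP-glucuronosyltransferase, an enzyme that conjugates hormones and drugs. It was at 2.13, 1.49, 0.978 and 3.91 CPM in fl/fl sham and at 11.2, 6.74, 3.58 and 2.43 CPM in iGKO sham. The IRI values were 4.79, 3.72, 1.84 and 1.07 CPM in fl/fl and at 10.2, 5.98, 7.33 and 8.24 CPM in iGKO. Its log2 fold change was 1.48 in each operation and 1.48 ± 0.36 pooled, with genotypes apart after IRI and overlapping after sham. Ugt1a2, of the same gene cluster, had 1.32 ± 0.34, but Ugt1a genes share their downstream exons, so their reads can be split between them and both values are uncertain. Ugt1a2 was at 39.7 CPM in iGKO IRI 3, at 9.44 to 15.8 CPM in iGKO IRI 1, 2 and 4, and at 3.00 to 7.33 CPM in fl/fl IRI. Tmem72, a membrane protein gene expressed in kidney, had 0.61 ± 0.15, made up of 0.29 after sham and 0.93 after IRI. Its levels were 96.9 to 119 CPM in fl/fl sham, 118 to 148 CPM in iGKO sham, 49.1 to 87.0 CPM in fl/fl IRI and 91.8 to 143 CPM in iGKO IRI. Ptgds, which encodes prostaglandin D synthase, had 1.35 ± 0.31, with 0.71 after sham and 2.07 after IRI, at levels of 0.316 to 2.85 CPM. Rab27a, a small GTPase of vesicle transport, had 0.61 ± 0.16, with 0.24 after sham and 0.99 after IRI.

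By the same limits on level and symbol, the 6 genes with the smallest p in the lower direction after Degs1 were Gcnt2, Slc12a2, Cadm1, Ttr, Retnlg and Ly6a, also with an adjusted p of 0.702 each. Slc12a2 encodes NKCC1, the basolateral sodium-potassium-chloride cotransporter. It was at 73.5, 90.3, 69.1 and 70.8 CPM in fl/fl sham and at 60.1, 59.7, 62.0 and 56.3 CPM in iGKO sham. Libraries after IRI were at 71.4, 86.8, 88.6 and 157 CPM in fl/fl and at 51.4, 54.8, 63.4 and 62.6 CPM in iGKO. All 8 iGKO libraries lay below all 8 fl/fl libraries, and the log2 fold change was -0.57 ± 0.14. Across the 25 alternatives it stayed negative, between -0.62 and -0.35, and passed under none, with an adjusted p of 0.257 to 0.891.

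Ttr encodes transthyretin, a carrier of thyroid hormone and retinol-binding protein. Its difference was -0.84 ± 0.22, with -1.01 after sham and -0.66 after IRI. It was at 54.5 to 105 CPM in fl/fl sham and 27.5 to 55.3 CPM in iGKO sham, and at 29.0 to 61.3 CPM in fl/fl IRI and 14.2 to 39.0 CPM in iGKO IRI. The genotypes overlapped in both operations, after sham through iGKO sham 4 alone. Ttr passed only in the limma-voom fit (-1.09, adjusted p = 0.0198). Gcnt2, a glycosyltransferase that branches poly-N-acetyllactosamine chains, had -0.66 ± 0.16, with -0.38 after sham and -0.94 after IRI. Cadm1, a cell adhesion molecule, had -0.74 ± 0.19, with -0.29 after sham and -1.19 after IRI. Ly6a (Sca-1) had -0.48 ± 0.14. Retnlg, a neutrophil transcript, had -2.49 ± 0.67, but it was under 1 CPM in all 8 sham libraries and highest in fl/fl IRI 2, 3 and 4, at 5.61, 15.9 and 4.30 CPM.

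The sham and IRI mice share no library, so fitting the operations alone shows how far a genotype difference recurs in other libraries. Those libraries also had another operation, so a failure to recur and a dependence on operation cannot be told apart. Over all 17972 genes the genotype difference did not recur in direction. The same sign after both operations was seen for 8839 genes (49.2%), and Spearman's rho across genes was -0.07. Genes are not independent replicates, so this is a description with no p. The IRI set had the larger differences, with a median absolute log2 fold change of 0.29 against 0.14 after sham. After sham, 398 genes (2.21%) had an unadjusted p under 0.05, 179 higher (0.996%) and 219 lower (1.22%) in iGKO. After IRI there were 2321 such genes (12.9%), 963 higher (5.36%) and 1358 lower (7.56%). Neither edgeR fit had a gene at an adjusted p under 0.05. DESeq2 called 2 genes after sham and 316 after IRI, and limma-voom called 1 and 312. Without iGKO sham 4 the sham fit called 1 gene, with 1080 at an unadjusted p under 0.05. Of the 1053 genes of the pooled test at an unadjusted p under 0.05, 942 had the larger absolute difference after IRI. 

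Where both operations gave an unadjusted p under 0.05, opposite directions outnumbered shared ones. There were 18 genes (0.1% of those tested) with the same direction, 8 higher and 10 lower in iGKO, and 50 genes (0.278%) with opposite directions. Without both libraries, the counts were 66 and 318, and 40.3% of genes had the same sign. Leaving out 1 library at a time gave 12 to 51 genes in the same direction, 22 to 141 in opposite directions and 41.6% to 52.3% with the same sign. Without fl/fl IRI 1, edgeR called 981 genes after IRI and had 4782 at an unadjusted p under 0.05. The interaction of genotype with operation called no gene in edgeR, with 2033 genes (11.3%) at an unadjusted p under 0.05 and a smallest adjusted p of 0.244. It called 112 genes in DESeq2, 1163 in limma-voom and 776 in edgeR without fl/fl IRI 1, so whether single genes differ between the operations depends on the method and on that library.

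**Figure D3:**
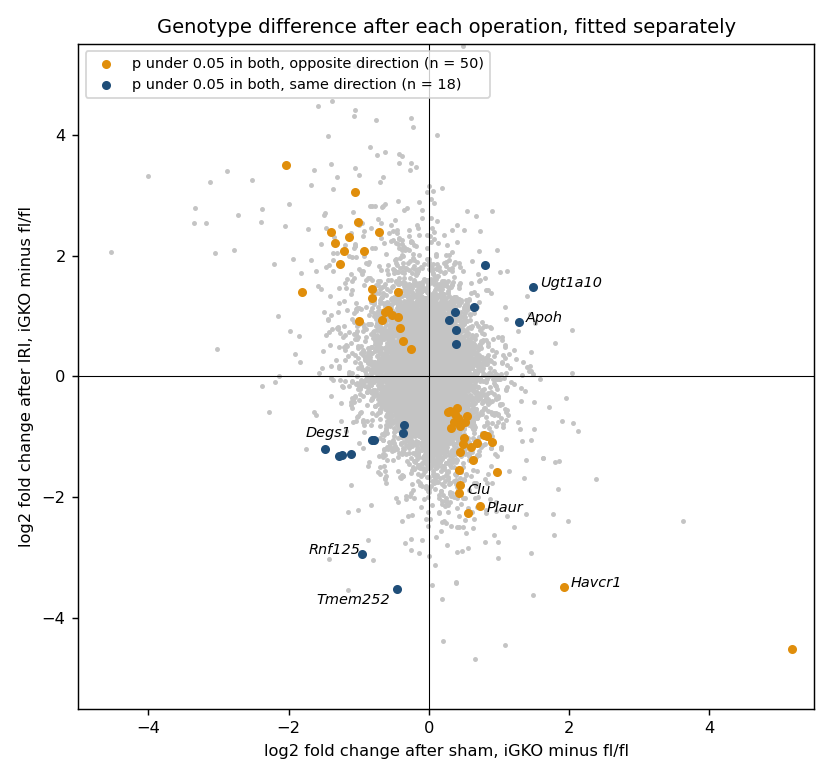
Genotype difference after sham (x axis) and after IRI (y axis) for each tested gene, both as log2 fold change (iGKO minus fl/fl) from fits that share no library; 4 genes lie outside the axes. Blue points have an unadjusted p under 0.05 in both fits in the same direction (18 genes, among them Degs1, Apoh and Ugt1a10), and orange points in opposite directions (50 genes, among them Havcr1, Clu and Plaur).

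The 18 genes with the same direction in both operations were no more than unrelated fits with the shares of each operation alone would give. These 18 genes were not tested for shared roles. Beside Degs1, Apoh, Ugt1a10, Ugt1a2, Tmem72, Gcnt2 and Slc12a2, they included the 7 genes described next, which were chosen here after their values were seen. Higher in iGKO were Cotl1 (an actin-binding protein) at 0.58 ± 0.17, Angptl8 (a regulator of lipoprotein lipase) at 0.90 ± 0.28, and P3h2 (a collagen prolyl hydroxylase) at 0.72 ± 0.25. Angptl8 was highest in iGKO IRI 3, the library with high fat markers, at 9.67 CPM. It was at 3.21 to 5.64 CPM in iGKO IRI 1, 2 and 4. P3h2 was at 193, 205, 179 and 190 CPM in fl/fl sham and at 228, 263, 240 and 258 CPM in iGKO sham, with no overlap. After IRI it was at 226, 100, 77.4 and 43.2 CPM in fl/fl and at 173, 206, 270 and 292 CPM in iGKO, where fl/fl IRI 1 lay inside the iGKO range. Lower in iGKO were Slco1a1 (an organic anion transporter of the proximal tubule) at -0.92 ± 0.28, Klk1b5 (a kallikrein) at -1.36 ± 0.40, Rnf125 (a ubiquitin ligase) at -2.04 ± 0.66 and Tmem252 at -1.98 ± 0.65. Slco1a1 was at 337, 201, 205 and 185 CPM in fl/fl sham and at 152, 95.8, 207 and 82.5 CPM in iGKO sham. After IRI it was at 106, 81.5, 72.1 and 131 CPM in fl/fl and at 53.8, 76.4, 13.1 and 45.3 CPM in iGKO, and 1 iGKO library in each operation lay within the fl/fl range. For Rnf125 and Tmem252, fl/fl IRI 4 stood far above the rest of its group: Rnf125 was at 44.7 CPM there and at most 3.54 CPM in fl/fl IRI 1, 2 and 3. Tmem252 was at 913 CPM there and at most 116 CPM in fl/fl IRI 1, 2 and 3. Klk1b5 belongs to a family of near-identical kallikrein genes, and its reads may be divided among them. Another 3 were gene models without an established symbol, with means of 0.694 to 1.55 CPM.

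Libraries of the genotypes did not overlap in either operation, in the same direction, for 7 genes: 2 higher in iGKO (0.0111% of those tested) and 5 lower (0.0278%). A single gene is apart in this way in a share of 0.000408 of the 4900 arrangements of genotype within each operation. The counts do not exceed that share, so separation alone is no evidence of shared differences beyond Degs1. The higher genes were Cox6b2, a testis-type subunit of cytochrome c oxidase, and Etohd2. Cox6b2 was at 3.56 to 4.73 CPM in fl/fl sham, 5.05 to 6.50 CPM in iGKO sham, 1.39 to 3.28 CPM in fl/fl IRI and 3.31 to 7.65 CPM in iGKO IRI. The lower genes were Degs1, Slc12a2, Eml4 (a microtubule-binding protein), Gm45762 and Gm48478. Eml4 was at 26.7 to 29.6 CPM in fl/fl sham and 24.1 to 26.5 CPM in iGKO sham, and at 33.7 to 44.9 CPM in fl/fl IRI and 26.5 to 32.3 CPM in iGKO IRI, with a pooled difference of -0.31 ± 0.09. Across all libraries regardless of operation, the 8 iGKO libraries lay below the 8 fl/fl libraries for 3 genes (0.0167%), Degs1, Slc12a2 and Gm45762, and above them for none. The Degs1 values were the widest apart of these 3 on the log2 scale.

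Among the 50 genes with opposite directions, 27 were higher in iGKO after sham and lower after IRI, and 23 the reverse. The first set included Havcr1. Clu (clusterin, a secreted chaperone) had 0.42 after sham and -1.93 after IRI, Plaur (the urokinase receptor) had 0.73 and -2.15, Myc had 0.98 and -1.58, and Havcr1 had 1.93 and -3.49. Clu was at 171 to 254 CPM in fl/fl sham and 252 to 330 CPM in iGKO sham, and at 610 to 2197 CPM in fl/fl IRI and 243 to 423 CPM in iGKO IRI. Havcr1 was at 4.15 to 24.7 CPM in fl/fl sham, at 13.2 to 21.7 CPM in 3 iGKO sham libraries and at 126 CPM in iGKO sham 2. After IRI it was at 101 to 1666 CPM in fl/fl and at 28.0 to 122 CPM in iGKO. The pooled estimate averaged these out to a log2 fold change of -0.83 ± 1.17 with an interval from -3.31 to 1.64. The second set included the apical sodium-proton exchanger Slc9a3, at -0.26 after sham and 0.45 after IRI, and the monocarboxylate transporter Slc5a8, at -0.44 and 0.99. Slc9a3 was at 170 to 198 CPM in fl/fl sham and 152 to 164 CPM in iGKO sham, and at 67.0 to 114 CPM in fl/fl IRI and 128 to 136 CPM in iGKO IRI. It did not overlap between genotypes in either operation, in opposite directions, and its pooled difference was 0.09 ± 0.13. These genes other than Havcr1 were picked after their values were seen.

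In the sphingolipid pathway, no gene other than Degs1 passed the pooled test. The de novo synthesis list had 14 tested genes, of which 1 was called lower, and 4 had an unadjusted p under 0.05, all lower. Beside Degs1 these were Cers5 (-0.32 ± 0.10), Sptlc2 (-0.51 ± 0.22) and Kdsr (-0.34 ± 0.16), each with an adjusted p of 0.702. The background at that threshold was 3.1% of genes in the lower direction. The list's median log2 fold change was -0.10, against -0.00226 over all genes. Sptlc2, the catalytic subunit of serine palmitoyltransferase, was at 97.3 to 118 CPM in fl/fl sham and 112 to 120 CPM in iGKO sham, and at 157, 288, 220 and 454 CPM in fl/fl IRI and 147, 113, 109 and 142 CPM in iGKO IRI. Its difference was 0.11 ± 0.11 after sham and -1.13 ± 0.30 after IRI (interaction adjusted p = 0.262). Kdsr had 0.00 after sham and -0.68 after IRI.

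For Degs2 and the other synthesis genes named next, the pooled interval included 0. Degs2, the paralog of Degs1 that also has hydroxylase activity, had -0.07 with an interval from -0.58 to 0.43. It was at 15.8 to 37.9 CPM in fl/fl sham, 19.2 to 28.3 CPM in iGKO sham, 10.0 to 30.1 CPM in fl/fl IRI and 14.0 to 28.6 CPM in iGKO IRI, with full overlap. Cers6 had -0.11 and Cers2 -0.14, and the regulatory Ormdl1, Ormdl2 and Ormdl3 had -0.13, -0.09 and -0.05. Sptlc1 had 0.02 ± 0.08. The upper bound for Degs2, 0.43 on the log2 scale, is below a 1.5-fold higher level.

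Of 31 tested genes that use or break down ceramide, 5 had an unadjusted p under 0.05 and all 5 were lower in iGKO, against 3.1% lower over all genes. They were the sphingomyelin synthases Sgms2 (-0.47 ± 0.16) and Sgms1 (-0.37 ± 0.16), the glucosylceramide synthase Ugcg (-0.56 ± 0.25) and the lactosylceramide synthases B4galt5 (-0.53 ± 0.19) and B4galt6 (-0.49 ± 0.18). Ugcg, the gene of these with the largest p, was named after its value was seen. All 5 had an adjusted p of 0.702. The list median was -0.13, and 22 of 31 members were below 0. Each of the 5 was below 0 in both operations, with larger differences after IRI, at -0.70 for B4galt5, -0.65 for Sgms2 and -0.92 for Ugcg. B4galt5 was at 178, 240, 178 and 158 CPM in fl/fl sham and at 104, 109, 110 and 267 CPM in iGKO sham, where iGKO sham 4 was the highest of all sham libraries. Libraries after IRI were at 234, 230, 266 and 166 CPM in fl/fl and at 130, 140, 104 and 176 CPM in iGKO. The limma-voom fit called B4galt5 (-0.74, adjusted p = 0.0198), the only call in 25 alternatives. EdgeR without iGKO sham 4 gave -0.75 without a call. The edgeR adjusted p was at least 0.173 in each fit that left out 1 library. The genes that break ceramide down, Asah1 and Asah2, had -0.08 and -0.12, and Smpd1, the acid sphingomyelinase, had 0.28, none under 0.05. Without both libraries, 3 of 14 synthesis genes were lower and 0 higher, and 6 of 31 genes of ceramide use were lower and 1 higher, against 1116 lower and 1058 higher of all 18243 genes.

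Nuclear genes of the respiratory chain had small positive values that were below the resolution of single genes. Of 36 complex I subunits, 34 had a log2 fold change above 0, with a median of 0.17, and 1 (Ndufs7, 0.45 ± 0.19) had an unadjusted p under 0.05. Of 40 subunits of complexes II to V, 39 were above 0, with a median of 0.15 and none under 0.05. The medians were -0.01 and 0.01 after sham and 0.36 and 0.30 after IRI, so the positive values were measured after IRI. Subunit genes of 1 complex vary together, and the list median varied between replicates with an SD of 0.21 and 0.20. Without both libraries, 16 of 36 and 11 of 40 were higher at an unadjusted p under 0.05 and none lower, against 1058 of all 18243 genes higher. The proximal tubule marker list had values of the same direction, with a median of 0.30 pooled, -0.11 after sham and 0.72 after IRI, and its part in the respiratory chain values was not tested. The 13 mitochondrially encoded mRNAs were all below 0, with a median of -0.34 and a replicate SD of 0.85, and none had an unadjusted p under 0.05. Without iGKO sham 4, the library with the low mitochondrial share, their median was -0.16 and 1 of 13 was lower at an unadjusted p under 0.05. Of 15 genes of cristae, none had an unadjusted p under 0.05, and 3 were higher without both libraries. Immt and Chchd3, which shape the cristae, had 0.05 ± 0.10 and 0.22 ± 0.11. Ppargc1a, the regulator of mitochondrial biogenesis, had 0.39 ± 0.18 pooled, -0.03 after sham and 0.82 after IRI.

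The list of fatty acid oxidation genes and targets of PPAR-alpha had 5 of 35 members higher and 2 lower at an unadjusted p under 0.05, none passing adjustment, and a median of 0.14. Over all genes 2.76% were higher and 3.1% lower. Cyp4a14, a fatty acid omega-hydroxylase, had 1.26 ± 0.33, with 0.61 after sham and 1.91 after IRI. It was at 117 to 409 CPM in fl/fl IRI and 705 to 1285 CPM in iGKO IRI, with no overlap. After sham, fl/fl libraries ranged from 330 to 1336 CPM and iGKO libraries from 610 to 1519 CPM. Pdk4, which restrains pyruvate oxidation, had -2.36 ± 0.85. It was at 2063 CPM in fl/fl IRI 4 and at 36.5, 99.3 and 84.9 CPM in fl/fl IRI 1, 2 and 3, while iGKO IRI libraries ranged from 19.9 to 130 CPM. Eci1, an enoyl-CoA isomerase, had 0.45 ± 0.18, with 0.33 after sham and 0.57 after IRI. Cholesterol synthesis (median 0.16) and fatty acid synthesis (median 0.15) had no member under 0.05 among 23 and 22 tested. Their medians had opposite signs in the operations, at -0.13 and -0.18 after sham and 0.50 and 0.53 after IRI. Without both libraries, 5 of 23 and 2 of 22 were higher.

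Stress lists gave no called gene, and their counts stand against 2.76% higher and 3.1% lower over all genes. Among 26 genes of the unfolded protein and integrated stress responses, 4 of 26 members were higher and 3 lower at an unadjusted p under 0.05. The higher members included the endoplasmic reticulum chaperones Hyou1 and Pdia4, at 0.46 ± 0.19 and 0.30 ± 0.13. They were alike in both operations, with 0.43 and 0.25 after sham and 0.49 and 0.36 after IRI. The lower members included Asns and Chac1, targets of ATF4, at -0.83 ± 0.31 and -1.74 ± 0.72, with -0.13 and 0.39 after sham. Heat shock genes had 3 of 15 lower, with Hspa4l at -0.47 ± 0.18 and Bag3 at -0.39 ± 0.15. These were -0.08 and -0.06 after sham and -0.87 and -0.72 after IRI. Genes of the NRF2 response had 2 of 22 lower (Hmox1 at -0.86 ± 0.36, Slc7a11 at -1.4 ± 0.60), and p53 targets had 3 of 18 lower, with Plk3 at -1.01 ± 0.31. Hmox1 and Slc7a11 had 0.07 and 0.02 after sham and -1.76 and -2.36 after IRI. Without both libraries, 4 of 22 NRF2 genes were lower and 1 higher, and 5 of 18 p53 targets were lower. Lysosome and autophagy genes had 1 of 29 higher (Gaa, 0.32 ± 0.14), and the circadian list had 1 of 19 lower (Rora, -0.35 ± 0.15).

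The tubular injury list had the 4 smallest p-values at Cd24a (-0.89 ± 0.28), Hbegf (-0.83 ± 0.28), Sox9 (-2.30 ± 0.85) and Klf6 (-0.92 ± 0.40), the only 4 of its 28 members under 0.05 and all lower, against 3.1% lower over all genes. The count was 8 of 28 without both libraries, where 1116 of all 18243 genes were lower. It was 4 without fl/fl IRI 1 alone and 6 without iGKO sham 4 alone. Because fl/fl IRI 1 was singled out by low Havcr1, an injury marker, fits without it are no independent test of this list. Its median was -0.61 pooled, 0.42 after sham and -1.57 after IRI. For 19 of the 28 members the interaction had an unadjusted p under 0.05, and 3 had the same sign in both operations. The pooled median lies between values of opposite sign. Lcn2 (NGAL, a secreted injury marker) had -1.0 ± 0.59, with 0.63 after sham and -2.51 after IRI.

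Interferon-stimulated genes had 6 of 25 members higher and none lower at an unadjusted p under 0.05, with a median of 0.25, none passing adjustment, against 2.76% higher over all genes. They included Ifit3 (0.58 ± 0.19), Isg15 (0.66 ± 0.24), Oas1a (0.55 ± 0.21) and Bst2 (0.57 ± 0.23). Isg15 had 0.76 after sham and 0.57 after IRI, and Ifit3 had 0.18 and 0.99. Ifit3 was at 7.35, 12.3, 11.1 and 9.15 CPM in fl/fl sham and at 13.7, 9.53, 9.61 and 12.6 CPM in iGKO sham. After IRI it was at 5.95 to 7.57 CPM in fl/fl and 8.20 to 17.1 CPM in iGKO, so the genotypes were apart after IRI alone. The count was again 6 of 25 without both libraries, where 1058 of all 18243 genes were higher. The list median was -0.01 after sham and 0.46 after IRI. Of 19 cytokines and chemokines, 1 was higher (Ccl7) and 4 were lower, against 2.76% higher and 3.1% lower over all genes. The lower ones included Cxcl1 at -1.68 ± 0.68 and Il34 at -1.14 ± 0.45. Cxcl1 and Il34 had 0.38 and 0.18 after sham and -3.42 and -2.41 after IRI. Without both libraries, 3 of 20 members were lower and 1 higher, against 1116 lower and 1058 higher of all 18243 genes.

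Markers of cell types showed no shared genotype difference that passed. Their pooled counts at an unadjusted p under 0.05 stand against 2.76% higher and 3.1% lower over all genes. Neutrophil markers had a median of -0.91 pooled, 0.47 after sham and -2.22 after IRI, with 2 of 7 lower (Retnlg and Mmp8). Their summed level was 2.29 to 19.1 CPM in the sham libraries, 25.02 to 225 CPM in fl/fl IRI and 10.9 to 36.5 CPM in iGKO IRI. The neutrophil sum moved with the lower values of the cytokine list after IRI, and its part in them was not tested. Fibroblast and mural markers had a median of 0.38 pooled, -0.22 after sham and 1.39 after IRI, with Col1a1 at 1.11 ± 0.51 and Col1a2 at 0.98 ± 0.45. Col1a1 was at 3598 CPM in iGKO IRI 2 and at 364, 900 and 555 CPM in iGKO IRI 1, 3 and 4. Without both libraries, neither collagen gene nor any other member of the list had an unadjusted p under 0.05. In that fit 5 of 14 proximal tubule markers, 4 of 9 macrophage markers and 3 of 6 markers of the thick ascending limb were higher. Of the macrophage markers 1 was lower, and of all 18243 genes 1058 were higher and 1116 lower. Collecting duct markers had Aqp3 and Aqp2, water channels of principal cells, at 0.58 ± 0.18 and 0.58 ± 0.27, and Atp6v1g3, of intercalated cells, at -0.32 ± 0.15, each with an unadjusted p under 0.05. Aqp2 had 0.64 after sham and 0.52 after IRI. Proximal tubule (14 genes), distal and connecting tubule (6), podocyte (6), lymphocyte (4 of 8 tested) and erythrocyte (4) lists had no member under 0.05. The endothelial and thick ascending limb lists had 1 each, Plvap (0.48 ± 0.17) and Ptger3 (0.59 ± 0.24), and the macrophage list had 1, Cd14 (-1.14 ± 0.50). Cd14 went against its list, where 7 of 9 members were above 0 with a pooled median of 0.16. The endothelial list had 4 members above and 4 below 0, with a pooled median of -0.01. Markers of adrenal, fat, muscle and urothelium had no member under 0.05 but ranged widely between libraries, from 18.9 to 1216 CPM in sum.

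**Figure D4:**
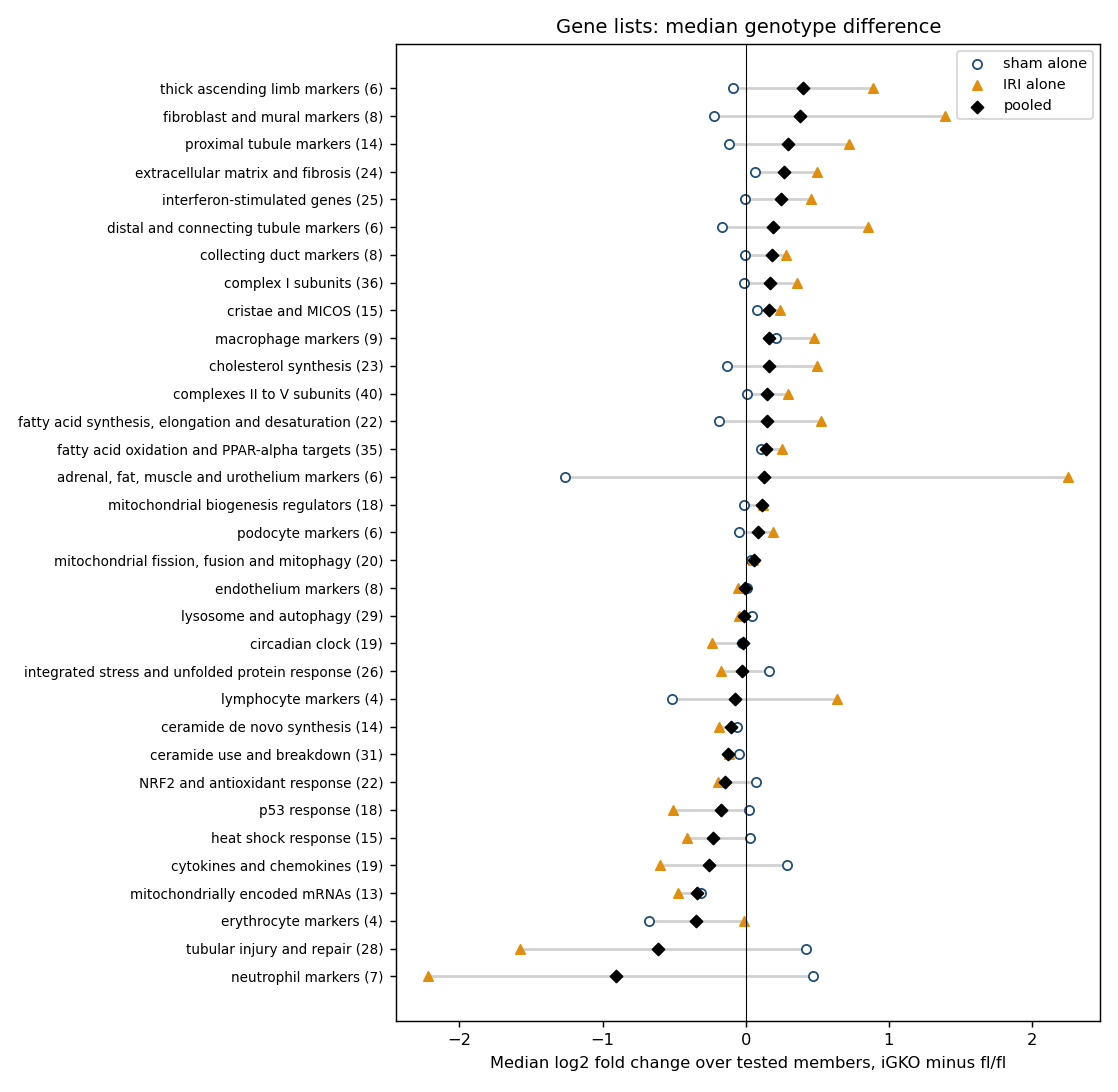
Median log2 fold change (iGKO minus fl/fl) of each gene list, with the number of tested members in brackets, for the pooled fit (black diamonds), sham alone (open circles) and IRI alone (orange triangles). Most pooled medians lie between a sham value near 0 and a larger IRI value, and for 22 of the 33 lists the sham and IRI medians have opposite signs.

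The genes next to the edited loci were compared because a Cre insertion can carry flanking sequence from its source strain. Both genotypes were Degs1fl/fl, so flanking sequence of the floxed allele is shared and the comparison cannot show it around Degs1. In the gene order of the RefSeq table for GRCm38.p6, the 10 tested genes on each side of Degs1 had log2 fold changes from -0.27 to 1.40 with a median of -0.10. Of these 20, 1 had an unadjusted p under 0.05 (Susd4, 0.55 ± 0.22), against 5.86% of all genes tested. The nearest on each side, Srp9 and Fbxo28, had -0.10 ± 0.12 and -0.11 ± 0.12. Around Gt(ROSA)26Sor, which holds the CreERT2 cassette in iGKO mice, 2 of 20 neighbours had an unadjusted p under 0.05, against the same 5.86%. These were Thumpd3 (-0.32 ± 0.15) and Setd5 (-0.27 ± 0.13), which flank the locus on either side, and the 20 had a median of -0.01. Gt(ROSA)26Sor itself, a noncoding transcript, had -0.18 with an interval from -0.59 to 0.24. It was at 5.58 to 7.62 CPM in fl/fl sham and 6.00 to 9.76 CPM in iGKO sham, and at 8.41 to 14.1 CPM in fl/fl IRI and 4.87 to 9.07 CPM in iGKO IRI. Its difference was 0.30 after sham and -0.65 after IRI, so no shared difference was seen there.

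**Figure D5:**
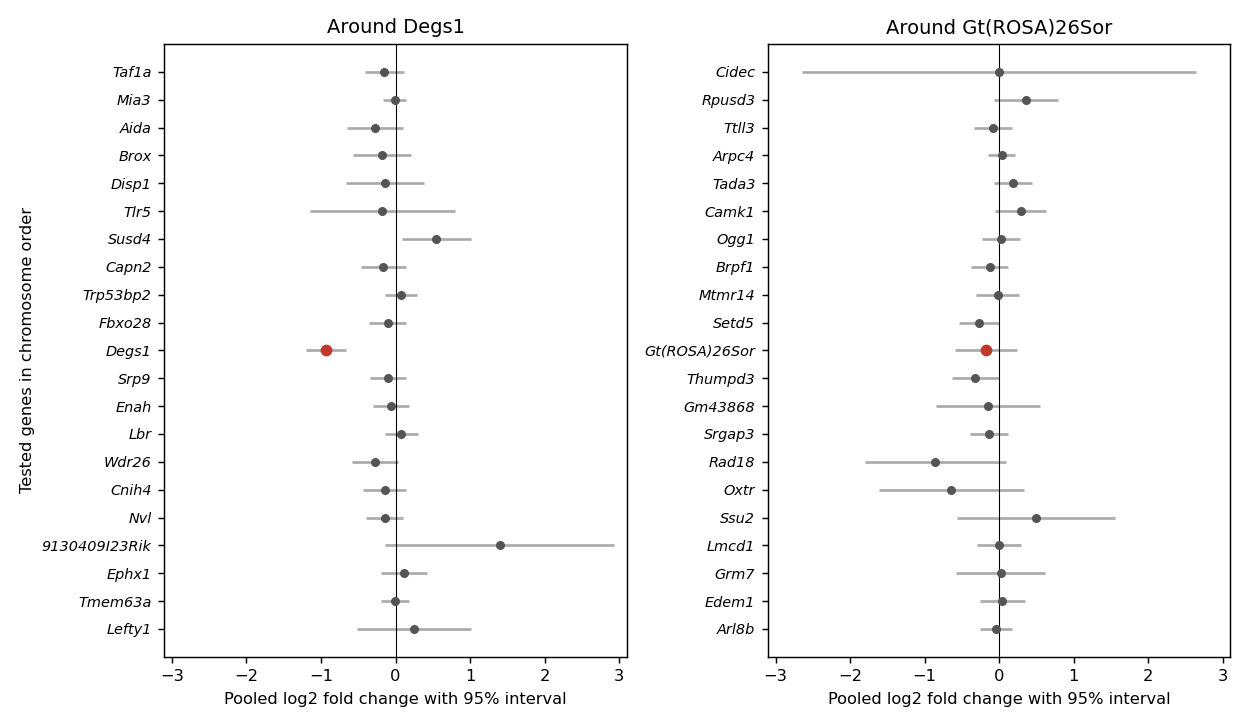
Pooled log2 fold change (iGKO minus fl/fl) with 95% interval for the 10 tested genes on each side of Degs1 (left) and of Gt(ROSA)26Sor (right), in gene order, with the central gene in red. The interval of Degs1 lies below those of its nearest neighbours, whose values lie near 0. All 20 neighbours of Degs1 range from -0.27 to 1.40, and those of Gt(ROSA)26Sor from -0.86 to 0.49.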

How the data were processed

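RNA from kidney cortex was sequenced after depletion of ribosomal RNA with a stranded kit. The authors deposited raw counts, whole reads per Ensembl gene for 56980 genes in 16 libraries, with no normalization, per the file headers. Per the submitters' processing notes, the tools were STAR 2.7.9a, DESeq2 1.36.0, cutadapt 1.16 and featureCounts 1.6.3, with MultiQC, Picard and FastQC, on GRCm39 (mm39). Annotation release and strand setting are not given in the sources used here, so reads of overlapping or antisense genes may not be separable. Symbols came from a GENCODE annotation of GRCm38, which matched 52073 identifiers, and no coordinates are printed.

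Genes kept by filterByExpr over the 4 groups (17972) were scaled by TMM and tested with edgeR 4.0.16 (R 4.3.3), a quasi-likelihood model with operation and genotype as additive terms, two-sided, with Benjamini-Hochberg adjustment over all tested genes and a threshold of 0.05. Called means passing it. Sham alone, IRI alone and the interaction were fitted on the same genes. CPM values were computed from these counts and TMM factors. Alternatives were DESeq2 1.42.0, limma 3.58.1 (voom with quality weights), other scaling and filters, a replicate block and each library left out. The code was tested on simulated data.

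Named genes were Degs1, the 6 of smallest p in each direction that did not pass (mean of at least 1 CPM, established symbol), up to 4 members of each list by p, 9 other fixed genes and the neighbours of Degs1 and Gt(ROSA)26Sor. The lists held 593 genes, 573 of them tested. Members, lists and rules were chosen with earlier results of these data known. Some genes are not reported here. All libraries carry 1 batch label. The labels do not say that replicates came from separate animals, so p-values measure the spread between samples, which may be technical. Replicate numbers are shared by the groups, but same-numbered samples did not deviate together: of 24 such pairs 6 had a correlation over 0.1, with a range of -0.35 to 0.43.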

Additional observations from a re-analysis of the deposited data

Results flagged for a closer look

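In groups of 4, a library was singled out when its gap to the nearest other library, as a share of the group's range, exceeded the 95% critical value of Dixon's ratio; this was checked for 23 named genes and the mitochondrial share of counts. Of 96 sets of 4 libraries checked, 5 were singled out, and chance gives about 1 in 20. In iGKO sham 4, Apoh was at 14.1 CPM against 23.3 to 24.3 CPM in the other 3 iGKO sham libraries. In the same library B4galt5 was at 267 CPM against 104 to 110 CPM, and mitochondrially encoded genes took 0.443% of counts against 6.07% to 6.45%. In iGKO sham 2, Havcr1 was at 126 CPM against 13.2 to 21.7 CPM. In fl/fl sham 2, the mitochondrial share was 4.43% against 6.14% to 6.48%. Of the 5, 3 lie in iGKO sham 4, and without it and fl/fl IRI 1 Degs1 had a log2 fold change of -0.91 (edgeR, adjusted p = 0.0297).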

How the results depend on the processing

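The pooled count of 1 gene was 2 with DESeq2 (1 higher in iGKO), 4 with limma-voom (1 higher, 3 lower) and 0 with the replicate block, and of these 2, 3 and 0 had an unadjusted p under 0.05 in the same direction in each operation alone. Scaling by RLE size factors, no filter, a minimum of 1 CPM, robust estimation, the mean of the within-operation contrasts and leaving out iGKO sham 4 with fl/fl IRI 1 all gave 1 gene, Degs1. Leaving out 1 library at a time gave 0 to 2 pooled genes, 0 to 1 higher and 0 to 1 lower, with 0 to 2 in both operations. The interaction had 0 genes in edgeR, 15 with no filter, 112 with DESeq2, 1163 with limma-voom, 1 with the replicate block, 1489 without both libraries and 0 to 776 with 1 library left out. Genes with an unadjusted p under 0.05 in both operations numbered 66 in the same and 318 in opposite directions without both libraries, with 40.3% of all genes of the same sign, and 12 to 51, 22 to 141 and 41.6% to 52.3% with 1 left out. Leaving out libraries for these shared counts and for the counts of list members, and the alternatives for B4galt5, were chosen after seeing the data.

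The samples share only a number, and 5 of 24 pairs correlated best with their own number. With that number as a replicate block the Degs1 log2 fold change was -0.93 (edgeR, adjusted p = 0.116), so the call was lost. It ranged from -1.0 to -0.87 with 1 library left out, and the exact permutation p from 0.000408 to 0.000816.

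Cers6 turned to 0.036 and Gt(ROSA)26Sor to 0.16 with limma-voom. Degs2 turned to 0.011 without both libraries and ranged from -0.19 to 0.057 with 1 library left out, being above 0 in 3 of those fits (fl/fl IRI 1, fl/fl IRI 2 or fl/fl sham 2 left out). Median log2 fold changes that moved by more than the replicate SD were, with limma-voom, mitochondrial biogenesis (0.0037), tubular injury (-0.054), collecting duct (0.019) and lymphocyte markers (-0.42), and macrophage markers (0.78) without both libraries. With 1 library left out, the circadian median ranged from -0.094 to 0.12 and that of fatty acid synthesis from -0.068 to 0.18. The causes were not tested. Depth limits genes near 1 CPM, where 1 library holds few reads, and Retnlg, Ptgds and the unnamed models fall there.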
